A study of Mus musculus with 10 samples.

Results

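The 38 genes described here code for proteins of the extracellular matrix and for surface proteins of mesenchymal cells, and all 38 were found among the 55421 genes of the count table. They were chosen by name, with earlier values of the genotype comparisons from these same libraries in view, in which 1 library of spleen cells carried high levels of several of them (Tnc and Kirrel among them). Genotype differences are therefore a description: calls are counted beside the share of all genes called, no p is printed for a gene and nothing is read from those counts. Tests of single genes are given for TAM against MDSC of Shp2f/f. The same comparison in Shp2f/fLysMcre uses the spleen library that was in view, so it is a description too. The libraries hold RNA of myeloid cells from mice with subcutaneous tumors of MC17-51, an established mouse fibrosarcoma line, collected at day 15 after implantation. Shp2f/f mice carry floxed Ptpn11, the gene of the phosphatase SHP-2, and served as controls. Shp2f/fLysMcre mice carry the same floxed gene plus Cre recombinase in the Lyz2 (lysozyme M) locus, which is active in macrophages and neutrophils but not in every cell of either kind. Myeloid-derived suppressor cells (MDSC) were taken from the spleen with magnetic beads, with 2 libraries per genotype. Tumor-associated macrophages (TAM) were sorted from the tumor as live CD45+CD11b+F4/80+Ly6G- cells, with 3 libraries per genotype. The study took the cells of both types from shared mice, but which libraries share a mouse was not given, so the fits of TAM against MDSC treat libraries as independent. The number of mice behind each library was not given either, so p-values measure only the spread between these libraries, which may be partly technical. Cell type, tissue and method of isolation changed together between MDSC and TAM and cannot be told apart.

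The extracellular matrix is built from collagens, glycoproteins such as fibronectin, and proteoglycans, and it is secreted for the most part by fibroblasts and other mesenchymal cells. Fibrillar collagens assemble into fibers that lysyl oxidases crosslink, type IV and type VI collagens form networks around cells, and tumors of mesenchymal origin often make matrix themselves. Macrophages also secrete some matrix proteins, fibronectin, thrombospondin 1 and versican among them, and they bind and take up collagen. In bulk RNA of sorted cells, fewer cells of a type and less RNA per cell cannot be told apart.

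Total counts were between 28844660 and 38222998 reads per library, and levels are given as CPM, the count divided by that total and multiplied by 1000000. Replicates differed by more than counting noise in every group, so none was counted as a repeat deposit. Ptpn11 was at 102.3 to 117.2 CPM in MDSC Shp2f/f and 87.1 to 97.5 in MDSC Shp2f/fLysMcre, and at 123.3 to 125.6 CPM in TAM Shp2f/f and 46.6 to 50.8 in TAM Shp2f/fLysMcre. Lyz2 was at 3506 to 9756 CPM in the Shp2f/f libraries and at 8.84 to 51.5 CPM in those of Shp2f/fLysMcre. Xist, which marks female cells, was at 0.0298 and 0.0301 CPM in both libraries of MDSC Shp2f/f and at 130.2 and 135.8 CPM in those of MDSC Shp2f/fLysMcre. It was at 4.84 to 18.5 CPM in TAM Shp2f/f and 191.5 to 350.4 CPM in TAM Shp2f/fLysMcre, so the sex makeup of the libraries and genotype cannot be told apart. Within Shp2f/f, Xist was also higher in every TAM library than in both MDSC libraries. The part of sex makeup in that comparison was not tested. The neutrophil list of 10 markers summed to 9827 to 31479 CPM in MDSC and 306.4 to 468.2 CPM in TAM, and the macrophage list of 10 markers to 2591 to 3215 CPM in MDSC and 12603 to 20036 CPM in TAM.

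Replicate 2 of MDSC Shp2f/fLysMcre stood apart from the other 3 MDSC libraries, as was known when the genes were chosen. Of the 38 genes, 35 had their highest MDSC level in that library, and 3 (Fn1, Thbs1 and Vcan) had their lowest there. Among 12608 genes with at least 50 counts in that library, 2.80% were more than 10-fold over the highest other MDSC library (3 counts added to each), and 20 of the 35 matrix genes ranked there were. High levels of several of the genes in that library were in view when the set was proposed, so nothing is read from that share. Type I collagen shows the size of the gap. Col1a1 had 58 and 492 counts in MDSC Shp2f/f and 175 and 6896 in MDSC Shp2f/fLysMcre, and Col1a2 had 25 and 170 and 63 and 4873. Each log2 fold change printed below for one of the 38 genes that uses MDSC Shp2f/fLysMcre is given with this library and without it.

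Upstream sequence was looked up for all members to show the start regions of genes whose levels the results turn on. RefSeq promoters of GRCm38.p6 were at hand for 24 of the 38 genes. The 250 bases before the start of 5 of these, Col3a1, Tnc, Thbs2, Pdgfra and Col6a3, were read as windows that overlap no annotated exon. The windows of Pdgfra and Col6a3 held none of the motifs searched, and the 3 shown were chosen after the search because they hold TATAAA. Capitals mark the motifs searched on both strands: TATAAA (the TATA box), CCAAT (the box of that name), GGGCGG (the GC box), TGANTCA (the AP-1 motif, with N for any base) and GGAATG (the TEAD motif).
Col3a1 (chr1:45311288-45311537, plus strand): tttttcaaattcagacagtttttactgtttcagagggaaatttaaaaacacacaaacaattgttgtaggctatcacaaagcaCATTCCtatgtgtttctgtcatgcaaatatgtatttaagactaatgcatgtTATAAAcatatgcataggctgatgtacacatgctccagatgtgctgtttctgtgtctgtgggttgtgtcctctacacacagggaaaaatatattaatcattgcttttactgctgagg
Tnc (chr4:64047016-64047265, minus strand): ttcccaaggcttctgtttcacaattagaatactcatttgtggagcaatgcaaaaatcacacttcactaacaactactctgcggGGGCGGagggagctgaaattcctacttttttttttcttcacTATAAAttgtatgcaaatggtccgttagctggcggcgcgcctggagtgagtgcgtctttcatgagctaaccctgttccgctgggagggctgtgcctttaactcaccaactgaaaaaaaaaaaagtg
Thbs2 (chr17:14694263-14694512, minus strand): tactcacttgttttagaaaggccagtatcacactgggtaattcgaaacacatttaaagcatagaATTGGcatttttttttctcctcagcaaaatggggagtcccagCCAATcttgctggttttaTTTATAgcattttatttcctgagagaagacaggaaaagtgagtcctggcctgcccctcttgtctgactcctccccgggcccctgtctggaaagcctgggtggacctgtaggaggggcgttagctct
Each of the 3 windows held TATAAA on one strand, and no other of the 24 did, a share of 12.5% against 12.4% of all 32851 promoters of the same length. The Col3a1 window also held GGAATG on the opposite strand, that of Tnc held GGGCGG, and that of Thbs2 held CCAAT on each strand. GGGCGG was in 15 of the 24 windows (62.5%, against 32.7% of all promoters), CCAAT in 9 (37.5% against 33.85%), GGAATG in 2 (8.33% against 12.6%) and TGANTCA in 1 (4.17% against 6.75%). No motif contains another, and a match says only that the letters are there.

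**Figure D1:**
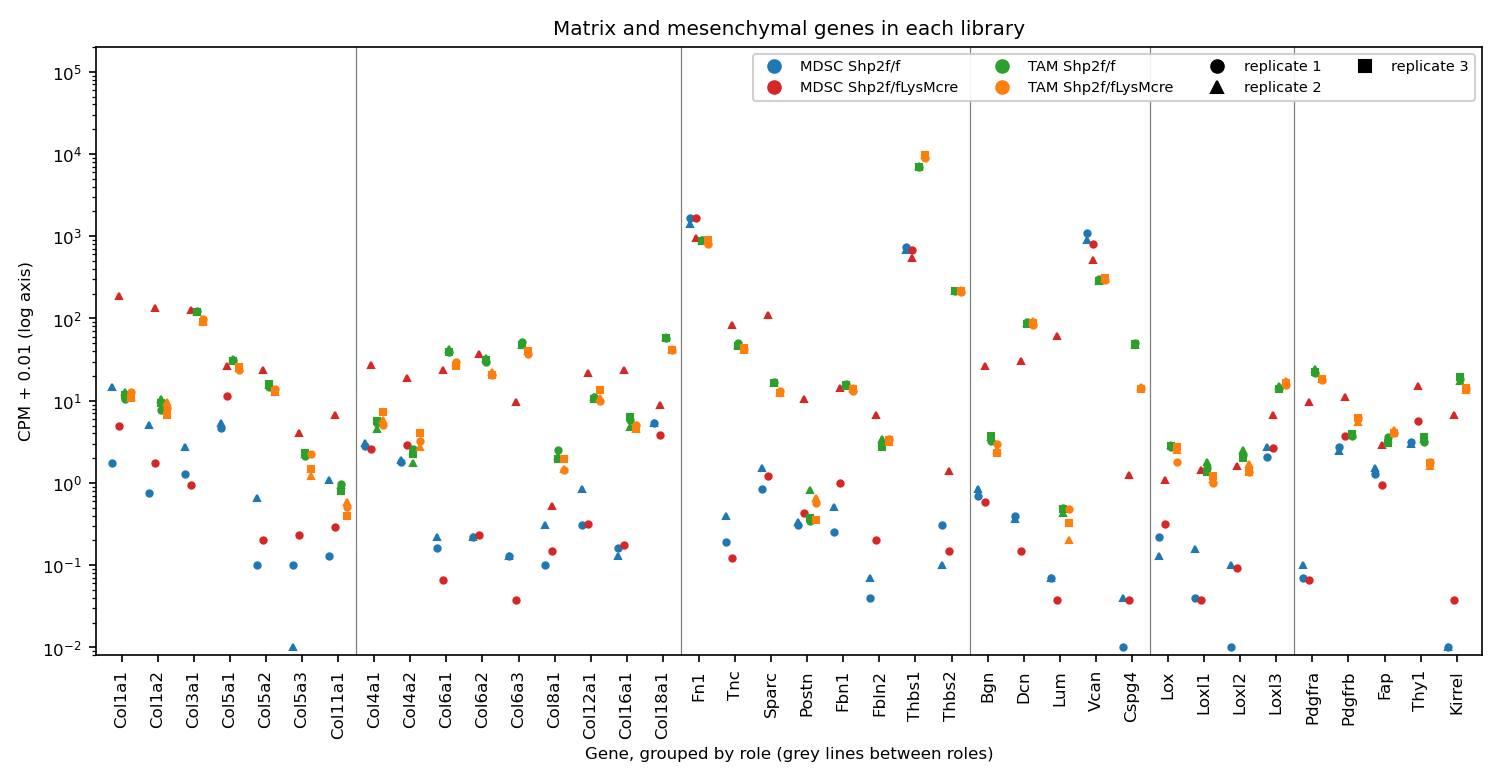
Level of each of the 38 genes in each of the 10 libraries, as CPM plus 0.01 on a log axis, with colors for the groups, shapes for the replicates and grey lines between the roles. The red triangles, replicate 2 of MDSC Shp2f/fLysMcre, lie above the other MDSC libraries for 35 genes, and the 3 TAM libraries of a genotype lie close together.

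TAM were first compared with MDSC in Shp2f/f mice, which asks which matrix transcripts TAM carried in mice with intact SHP-2. In TAM, 31 of the 38 genes were higher and 2, Vcan and Fn1, were lower (edgeR quasi-likelihood test, adjusted p under 0.05). Over all 15659 genes tested, 40.0% were higher and 38.8% lower by the same rule. The 5 genes that did not pass were Col1a1, Col11a1, Col4a2, Postn and Thy1. Of the 38 genes, 13 were under the minimum of 10 counts in both MDSC libraries and so entered the test only through their TAM counts. Of the 25 others, 18 were higher and 2 lower, and nothing is read from the share of the 38 called.

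Among the fibrillar collagens, which form the tensile fibers of connective tissue, Col3a1 was the most abundant in TAM by exon length. It was at 1.26 and 2.71 CPM in MDSC and 125, 119.6 and 121 CPM in TAM, a log2 fold change of 5.96 (SE 0.159) with adjusted p = 7.86e-10 (edgeR quasi-likelihood). All 3 TAM libraries were far above both MDSC libraries. Col5a1, a minor partner of type I collagen fibers, was at 4.69 and 5.33 CPM in MDSC and 31.6, 31.8 and 30.0 CPM in TAM, a log2 fold change of 2.66 (SE 0.0811) with adjusted p = 1.90e-09 (edgeR quasi-likelihood). Col1a1, the main chain of type I collagen, was at 1.74 and 14.6 CPM in MDSC and 10.5, 12.9 and 11.7 CPM in TAM, so the groups overlapped, and it did not pass (log2 fold change 0.54 (SE 0.552), edgeR quasi-likelihood adjusted p = 0.389). Its partner chain Col1a2 went from 0.752 and 5.06 CPM to 7.63, 10.6 and 9.43 CPM and passed, by 1.69 (SE 0.494) on the log2 scale. The 2 MDSC libraries themselves differed in this role: Col1a1, Col1a2, Col5a2 and Col11a1 were more than 3-fold higher in replicate 2 than in replicate 1 (3 counts added to each). Col5a2 and Col5a3 were higher in TAM, with Col5a3 at 3 counts in all over the MDSC libraries and 239 over TAM, a ratio of 49.7 with a 95% counting interval of 16.8 to 242.7.

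Type VI collagen, a heterotrimer that forms beaded filaments around cells, was higher in TAM in all 3 of its chains. All 3 were under the minimum of 10 counts in both MDSC libraries and entered the test only through their TAM counts, so no p is given. Col6a3 was at 0.120 and 0.119 CPM in MDSC and 52.2, 48.2 and 47.8 CPM in TAM, a log2 fold change of 8.67 (SE 0.141). On the log2 scale Col6a1 rose by 7.82 (SE 0.144) and Col6a2 by 7.23 (SE 0.149), and both were at 0.150 to 0.210 CPM in MDSC. In TAM these chains were at 39.4, 42.9 and 39.6 CPM for Col6a1 and 29.6, 33.3 and 31.7 CPM for Col6a2. Col18a1, a basement membrane collagen whose end fragment is endostatin, was at 5.32 and 5.42 CPM in MDSC and 57.7, 60.4 and 57.4 CPM in TAM, a log2 fold change of 3.47 (SE 0.0691) with adjusted p = 1.20e-10 (edgeR quasi-likelihood). The chains of type IV collagen, the network of basement membranes, had smaller differences: Col4a1 passed with a log2 fold change of 0.84 (SE 0.149) and Col4a2 did not, at 0.27 (SE 0.217). Col8a1, Col12a1 and Col16a1 were higher in TAM, with log2 fold changes of 3.49, 4.28 and 5.37.

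Matrix glycoproteins held most of the summed CPM. Thbs1, thrombospondin 1, which activates latent TGF-beta, was at 736 and 674 CPM in MDSC and 7048, 7070.4 and 6886 CPM in TAM, a log2 fold change of 3.33 (SE 0.0530) with adjusted p = 3.61e-11 (edgeR quasi-likelihood). Its relative Thbs2 was at 0.301 and 0.0893 CPM in MDSC and 219, 217 and 217 CPM in TAM, with a log2 fold change of 10.12 (SE 0.138) and adjusted p = 1.68e-11 (edgeR quasi-likelihood). Fn1, fibronectin, went the other way, from 1646 and 1409.6 CPM in MDSC to 913, 893 and 884 CPM in TAM, a log2 fold change of -0.75 (SE 0.0634) with adjusted p = 3.19e-06 (edgeR quasi-likelihood). Thbs1 and Thbs2 were thus high in all 3 TAM libraries and Fn1 was high in both cell types. Tnc, tenascin C, a glycoprotein of wounds and tumor stroma, was at 0.180 and 0.387 CPM in MDSC and 50.6, 47.2 and 46.6 CPM in TAM, a log2 fold change of 7.41 (SE 0.149) with adjusted p = 1.27e-10 (edgeR quasi-likelihood). Sparc, a collagen-binding protein, was at 0.842 and 1.52 CPM in MDSC and 17.1, 16.4 and 16.6 CPM in TAM, a log2 fold change of 3.84 (SE 0.165). The microfibril gene Fbn1 was also higher in TAM, at 5.38 (SE 0.178). Fbln2, fibulin 2, had 3 counts in all over MDSC and 328 over TAM, a ratio of 68.2 with a 95% counting interval of 23.1 to 332.4. Postn, periostin, was at 0.301 and 0.327 CPM in MDSC and 0.333, 0.811 and 0.362 CPM in TAM and did not pass.

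Proteoglycans split in direction. Vcan, versican, a large hyaluronan-binding proteoglycan that monocytes make, was at 1084 and 904 CPM in MDSC and 302, 288 and 284 CPM in TAM, a log2 fold change of -1.75 (SE 0.0726) with adjusted p = 1.69e-08 (edgeR quasi-likelihood). Dcn, decorin, which binds collagen fibers, was at 0.391 and 0.357 CPM in MDSC and 89.7, 89.1 and 86.9 CPM in TAM, a log2 fold change of 7.90 (SE 0.0970) with adjusted p = 1.10e-11 (edgeR quasi-likelihood). Cspg4, the NG2 proteoglycan known from pericytes and some tumor cells, had 0 and 1 counts in the MDSC libraries and was at 50.1, 48.0 and 48.4 CPM in TAM. The ratio of its summed levels was 3260, with a 95% counting interval of 585 to 128789. Lum, lumican, the neighbor of Dcn on chromosome 10, had 2 and 2 counts in MDSC and 16, 16 and 17 counts in TAM, under 0.5 CPM in every one of these libraries. Bgn, biglycan, rose from 0.692 and 0.833 CPM to 3.21, 3.66 and 3.67 CPM.

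The 4 lysyl oxidases, which crosslink collagen and elastin, were all higher in TAM. Loxl3 was the most abundant, at 2.04 and 2.77 CPM in MDSC and 14.5, 15.3 and 14.0 CPM in TAM, a log2 fold change of 2.62 (SE 0.127) with adjusted p = 5.23e-08 (edgeR quasi-likelihood). Lox had 7 and 4 counts in MDSC and 89, 110 and 100 counts in TAM, a log2 fold change of 4.07 (SE 0.295). Of the mesenchymal surface proteins, Pdgfra, a receptor of platelet-derived growth factor and a fibroblast marker, was at 0.0601 and 0.0893 CPM in MDSC and 21.6, 24.5 and 22.6 CPM in TAM, a log2 fold change of 8.21 (SE 0.189). Lox and Pdgfra were under the minimum of 10 counts in both MDSC libraries. They entered the test only through their TAM counts, so no p is given. Kirrel, an immunoglobulin-like adhesion protein related to nephrin, had 0 counts in both MDSC libraries and was at 18.5, 17.3 and 19.4 CPM in TAM, at least 409.8-fold higher against a floor of 3 counts over the group. Pdgfra and Kirrel were near or at 0 in MDSC and at 17.3 CPM or more in every TAM library. Pdgfrb and Fap, markers of pericytes and activated fibroblasts, were higher in TAM by smaller steps of 0.60 (SE 0.148) and 1.28 (SE 0.187) on the log2 scale. Thy1, a surface glycoprotein of fibroblasts and T cells, was at 3.13 and 2.98 CPM in MDSC and 3.18, 3.45 and 3.59 CPM in TAM and did not pass.

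Compared per exon length, as TPM, which scales like CPM after each count is divided by exon length, the order of the genes in TAM Shp2f/f was led by Thbs1 at 3856 ± 88.1 TPM (SD, n = 3), Fn1 at 256.6 ± 6.21, Thbs2 at 103.9 ± 1.39, Vcan at 67.3 ± 2.71 and Dcn at 50.7 ± 1.29. The gaps between these neighbors were wider than their spread. In MDSC Shp2f/f Fn1 was at 414.3 and 354.4 TPM, Thbs1 at 356.5 and 325.9 and Vcan at 220.4 and 183.6, so the ranges of Fn1 and Thbs1 overlapped. No other gene of the set was above 6.55 TPM there. Fn1, Thbs1 and Vcan together made up 98.2% to 99.1% of the summed CPM of the 38 genes in the 3 other MDSC libraries, 65.1% in replicate 2 of MDSC Shp2f/fLysMcre and 89.9% to 93.4% in TAM.

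**Figure D2:**
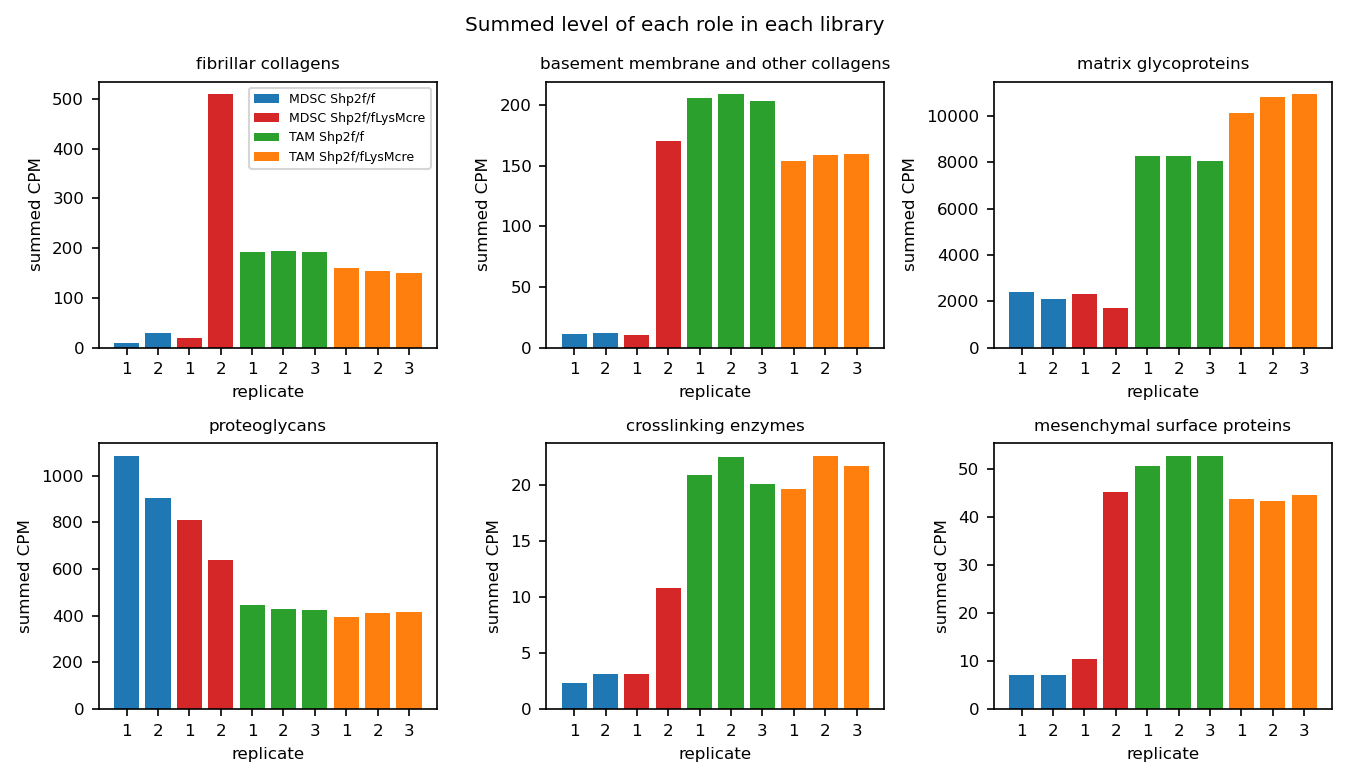
Summed CPM of the genes of each role in each library, on linear axes that start at 0, with 1 bar per library and colors for the groups. Fibrillar collagens reached 509.4 CPM in replicate 2 of MDSC Shp2f/fLysMcre against 8.75 to 29.5 in the other MDSC libraries, while the matrix glycoproteins, led by Thbs1, were highest in TAM Shp2f/fLysMcre.

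Summed over all 38 genes, the level was 3271 ± 322 CPM in MDSC Shp2f/f and 3145 ± 61.5 CPM in MDSC Shp2f/fLysMcre (SD, n = 2 each), and 9104 ± 125.3 CPM in TAM Shp2f/f and 11422 ± 445 CPM in TAM Shp2f/fLysMcre (SD, n = 3 each). This sum followed the most abundant genes. Without Fn1, Thbs1, Vcan and Sparc, the other 34 genes summed to 31.3 and 54.5 CPM in MDSC Shp2f/f, to 46.4 and 971.5 CPM in MDSC Shp2f/fLysMcre, to 888.3 to 903.1 CPM in TAM Shp2f/f and to 744.5 to 770.1 CPM in TAM Shp2f/fLysMcre. By this sum replicate 2 of MDSC Shp2f/fLysMcre was above every TAM library.

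The matrix genes stood in other ratios to each other in this library than in TAM. Against the 6 TAM libraries, 21 of the 38 genes were higher in it than in any, 13 were lower than in all and 4 lay within their range. Lum was at 0.0279 and 62.0 CPM in MDSC Shp2f/fLysMcre and at 0.191 to 0.485 CPM in TAM. The ratio of Lum to Dcn counts was 2.03 in replicate 2 (95% counting interval 1.89 to 2.19) and 0.0021 to 0.0057 in TAM. Lum and Dcn are both small leucine-rich proteoglycans that bind collagen. The ratio of Col1a1 to Col3a1 counts was 1.48 in replicate 2 and 0.0845 to 0.132 in TAM. Sparc was at 1.20 and 112 CPM in MDSC Shp2f/fLysMcre and Thbs2 at 0.139 and 1.40 CPM, a count ratio of 79.9 in replicate 2 against 0.0562 to 0.0780 in TAM. Within type VI collagen the 3 chains also stood in another ratio, with Col6a3 at 0.403 of the Col6a1 count in replicate 2 and at 1.12 to 1.53 in TAM.

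Other genes moved with the matrix genes in this library. Amelx, amelogenin, the main protein of forming tooth enamel, had 12 and 17 counts in MDSC Shp2f/f and 13 and 19216 in MDSC Shp2f/fLysMcre, and Ambn, ameloblastin, had 5 and 5, then 8 and 7862. A list of 10 enamel and tooth genes, drawn up after these values were seen, summed to 0.541 to 0.655 CPM in the 3 other MDSC libraries, 767.5 CPM in replicate 2 and 0.451 to 1.15 CPM in TAM, and 7 or 8 of its 10 genes were at 0 in each library but replicate 2, where none was. A cartilage and bone list, also drawn up afterwards, summed to 2.41 to 3.76 CPM in the 3 others, 117.7 CPM in replicate 2 and 0.520 to 0.974 CPM in TAM. The keratinocyte list summed to 0.139 to 0.476 CPM in the 3 others and 46.8 CPM in replicate 2. The part of these other cells or tissues in the matrix levels was not tested.

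**Figure D3:**
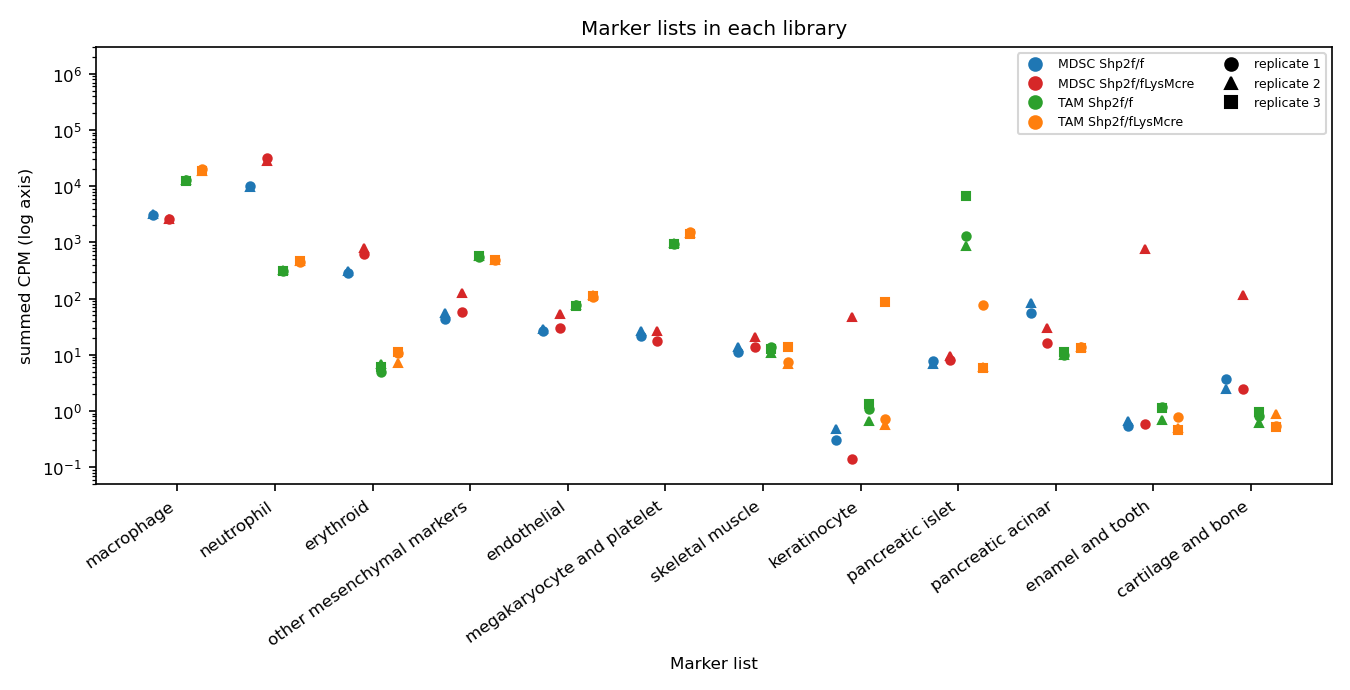
Summed CPM of 12 lists of marker genes in each library, on a log axis, with colors for the groups and shapes for the replicates. Replicate 2 of MDSC Shp2f/fLysMcre (red triangles) stands at 767.5 CPM for enamel and tooth genes where the other libraries are at 0.451 to 1.15, and pancreatic islet genes are highest in TAM Shp2f/f.

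The same comparison of TAM with MDSC was made in Shp2f/fLysMcre mice, as a description. High levels in MDSC replicate 2 were in view when the genes were proposed, so nothing is read from the counts. With both MDSC libraries, 9 of the 38 genes were higher in TAM and 3 were lower (edgeR quasi-likelihood test, adjusted p under 0.05), where over all 15741 genes tested 29.8% were higher and 33.7% lower. Scaled by total counts, the calls were 7 higher and 4 lower among the 38 genes and 3696 higher and 6561 lower over all genes, against 4689 and 5301 with TMM. The median log2 fold change of the 38 genes was 0.43 with both, 3.59 without replicate 2 and -0.35 without replicate 1. Over all genes it was -0.05, -0.01 and -0.07 in these fits. A fit without 1 of the replicates holds a single MDSC library, which is assumed to vary like TAM. The direction thus moved with the MDSC library used. The genes higher with both were Thbs2, Cspg4, Thbs1, Col6a3, Col18a1, Col8a1, Loxl3, Lox and Fap, and the lower ones were Lum, Thy1 and Vcan.

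Thbs2 was at 0.139 and 1.40 CPM in MDSC and 208, 222 and 218 CPM in TAM, a log2 fold change of 8.33 (SE 0.561) and of 10.69 without MDSC replicate 2. Cspg4 was at 0.0279 and 1.23 CPM in MDSC and 14.3, 14.9 and 14.0 CPM in TAM, a log2 fold change of 4.73 (SE 0.895) and of 8.96 without it. Thbs1 was at 675 and 549 CPM in MDSC and 9054, 9644 and 9761 CPM in TAM, a log2 fold change of 4.15 (SE 0.155) and of 3.95 without it. These 3 genes were higher in every TAM library than in either MDSC library. Cspg4, Lum and Kirrel had 1 count each in MDSC replicate 1, so their fitted values without replicate 2 depend on the prior count and are no bound. Vcan was at 811 and 519 CPM in MDSC and 293, 299.9 and 310.1 CPM in TAM, a log2 fold change of -0.95 (SE 0.204) and of -1.29 without it. For Vcan both MDSC libraries were above all TAM libraries.

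For other genes the direction or size rested on that library. Without it, 12 of the 38 log2 fold changes turned sign. Lum was called lower in TAM with a log2 fold change of -6.32 (SE 2.02), and was higher in TAM, at 3.50, without it. Postn was at 0.418 and 10.4 CPM in MDSC and 0.563, 0.654 and 0.347 CPM in TAM, with a log2 fold change of -3.11 (SE 1.12) that did not pass and 0.46 without it. Col1a1 was at 4.88 and 189 CPM in MDSC and 12.9, 11.1 and 10.6 CPM in TAM, with -2.82 (SE 1.17), also not called, and 1.38 without it. Col3a1, at 0.947 and 127 CPM in MDSC and 97.9, 94.4 and 90.9 CPM in TAM, had a log2 fold change of 0.80 (SE 1.33) that did not pass and 6.77 without it. Tnc likewise went from 0.28 (SE 1.39) to 8.66, Kirrel from 2.29 (SE 1.22) to 8.90, and Dcn from 2.77 (SE 1.26) to 9.40.

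**Figure D4:**
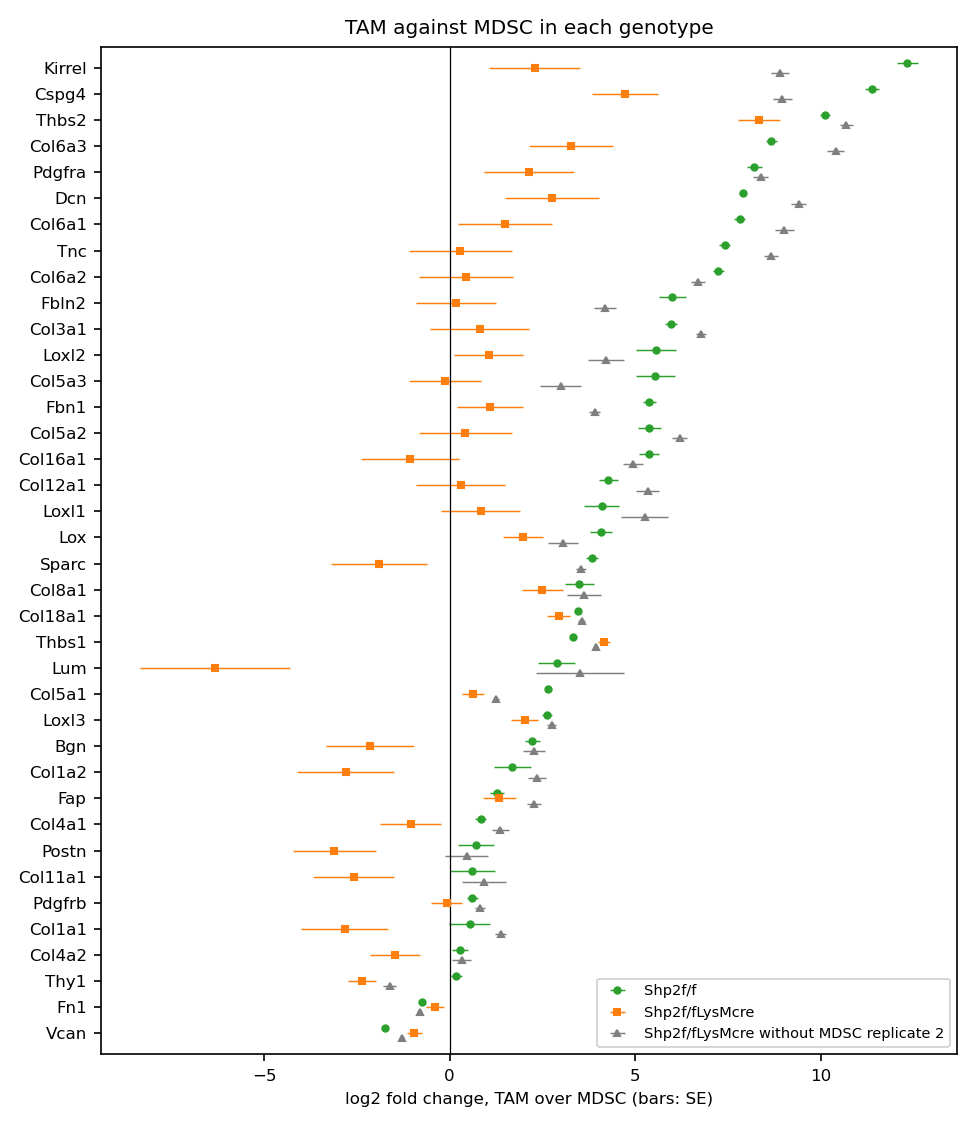
Log2 fold change of TAM over MDSC for each of the 38 genes, with bars of 1 SE, in Shp2f/f (green), in Shp2f/fLysMcre (orange) and in Shp2f/fLysMcre without MDSC replicate 2 (grey). Lum moves from -6.32 to 3.50 without that library, and the values of Kirrel, fitted at 12.33 in Shp2f/f, rest on 0 or 1 counts in all MDSC libraries but replicate 2 of Shp2f/fLysMcre.

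The genotypes were compared within MDSC as a description. Of the 38 genes, 26 passed the filter on low counts, and the other 12 were over the minimum in 1 MDSC library only, replicate 2 of Shp2f/fLysMcre. None of the 26 was called by edgeR at an adjusted p under 0.05, where 3.76% of all 14806 genes tested were called higher and 0.520% lower in Shp2f/fLysMcre. An unadjusted p under 0.05 was met by 12 of the 26, beside 2859 of all genes. DESeq2 called 3 of the 26, beside 1256 of all genes. Leaving out a Shp2f/fLysMcre library leaves 1 in that group, so only effect sizes are given for such fits. With both libraries, the matrix genes had a median log2 difference of 2.36 over the 26 tested. It was -0.33 over 26 genes without replicate 2 of Shp2f/fLysMcre and 4.95 over 38 genes without its replicate 1. For all genes tested, the medians of these 3 fits were -0.01, -0.01 and -0.006. Of the 26 log2 differences, 15 turned sign without replicate 2. The neutrophil list was at 10121 and 9827 CPM in MDSC Shp2f/f and 31479 and 27770 CPM in MDSC Shp2f/fLysMcre, with 6 of its 10 genes called higher and 0 lower. Its part in the matrix differences was not tested.

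Tnc had 6 and 13 counts in MDSC Shp2f/f and 4 and 3016 in MDSC Shp2f/fLysMcre, a log2 difference of 7.07 (SE 2.52), which was -1.31 without replicate 2. Sparc had 28 and 51 counts and 43 and 4076, a log2 difference of 5.48 (SE 1.91) that was 0.03 without it. Dcn had 13 and 12 counts and 5 and 1115, a log2 difference of 5.25 (SE 2.02) that was -1.39 without it. In each of these 3 genes 1 library was high and the other Shp2f/fLysMcre library lay within or below the Shp2f/f range. Kirrel had 0 and 0 counts and 1 and 243 and did not pass the filter.

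The lower end of the MDSC comparison was made of the abundant genes of myeloid cells. Vcan was at 1084 and 904 CPM in MDSC Shp2f/f and 811 and 519 CPM in MDSC Shp2f/fLysMcre, a log2 difference of -0.61 (SE 0.264) that was -0.28 without replicate 2. Fn1 was at 1646 and 1409.6 CPM and 1655 and 949.9 CPM, a log2 difference of -0.26 (SE 0.302) that was 0.13 without it. Thbs1 was at 736 and 674 CPM and 675 and 549 CPM, a log2 difference of -0.24 (SE 0.168) that was -0.05 without it. For Vcan both Shp2f/fLysMcre libraries lay below both Shp2f/f libraries, and for Fn1 they lay on either side of them. In 8 of the 26 genes tested the genotypes did not overlap in MDSC, 7 of them higher and 1 lower in Shp2f/fLysMcre, where 47.8% of all genes tested did not. Col5a1 and Thy1 were among those higher, Col5a1 at 4.69 and 5.33 CPM against 11.6 and 26.1 CPM and Thy1 at 3.13 and 2.98 CPM against 5.74 and 14.9 CPM. The others were Col4a2, Fbn1, Lox, Pdgfrb and Postn.

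The genotypes were then compared within TAM, again as a description. TAM libraries of 1 group lay close together, with a median coefficient of variation over the 38 genes of 4.90% in Shp2f/f and 5.59% in Shp2f/fLysMcre. All 38 genes passed the filter, and 13 met the threshold as lower and 6 as higher with the deletion (edgeR, adjusted p under 0.05), beside 23.9% of the 14446 genes tested called higher and 26.3% lower. The set was proposed with these differences in view, so nothing is read from its counts. In 24 of the 38 genes the genotypes did not overlap, 5 of them higher and 19 lower in Shp2f/fLysMcre, where 59.9% of all genes tested did not. Scaled by total counts, 5 of the 38 genes were called higher and 17 lower, and over all genes 2342 higher and 5227 lower, against 3452 and 3805 with TMM. The median log2 difference of all genes was -0.11 with total counts and -0.01 with TMM here, and -0.26 and -0.05 in TAM against MDSC of Shp2f/fLysMcre.

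Cspg4 had the widest gap. It was at 50.1, 48.0 and 48.4 CPM in Shp2f/f and 14.3, 14.9 and 14.0 CPM in Shp2f/fLysMcre, a log2 difference of -1.66 (SE 0.0481). Every Shp2f/fLysMcre library lay far below every Shp2f/f library. Thy1 was at 3.18, 3.45 and 3.59 CPM and 1.81, 1.58 and 1.73 CPM, a log2 difference of -0.90 (SE 0.144). Col11a1, a minor fibrillar collagen, was at 0.969, 0.942 and 0.779 CPM and 0.504, 0.572 and 0.381 CPM, a log2 difference of -0.77 (SE 0.264) from 32, 36 and 28 counts and 17, 21 and 11 counts. Both genes were lower in every Shp2f/fLysMcre library.

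The chains of type VI collagen were lower together in TAM Shp2f/fLysMcre. Col6a1 was at 39.4, 42.9 and 39.6 CPM in Shp2f/f and 29.6, 28.6 and 26.2 CPM in Shp2f/fLysMcre, a log2 difference of -0.43 (SE 0.0602). Col6a2, its neighbor on chromosome 10, was at 29.6, 33.3 and 31.7 CPM and 20.7, 22.3 and 20.5 CPM, a log2 difference of -0.47 (SE 0.0597). Col6a3, on chromosome 1, was at 52.2, 48.2 and 47.8 CPM and 37.4, 39.9 and 40.1 CPM, a log2 difference of -0.24 (SE 0.0483). The genotypes did not overlap in any of the 3 chains. Col18a1 was at 57.7, 60.4 and 57.4 CPM and 41.7, 42.3 and 41.0 CPM, a log2 difference of -0.39 (SE 0.0434), and Col3a1 at 125, 119.6 and 121 CPM and 97.9, 94.4 and 90.9 CPM, -0.27 (SE 0.0421). Loxl2, Kirrel, Sparc, Pdgfra and Col5a1 were the other genes called lower, with log2 differences of -0.50, -0.31, -0.29, -0.24 and -0.23.

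Pdgfrb, Col4a2 and Thbs1 were the furthest on the other side. Pdgfrb was at 3.69, 3.98 and 3.95 CPM in Shp2f/f and 6.16, 5.53 and 6.17 CPM in Shp2f/fLysMcre, a log2 difference of 0.72 (SE 0.0994). Col4a2 was at 2.57, 1.75 and 2.25 CPM and 3.20, 2.75 and 4.09 CPM, a log2 difference of 0.70 (SE 0.188). Thbs1 was at 7048, 7070.4 and 6886 CPM and 9054, 9644 and 9761 CPM, a log2 difference of 0.54 (SE 0.0253). In all 3 genes every Shp2f/fLysMcre library was above every Shp2f/f library. Fap, Loxl3 and Vcan were the other 3 genes called higher, with log2 differences of 0.41, 0.27 and 0.15. For Vcan the genotypes overlapped in CPM, at 283.6 to 301.7 in Shp2f/f and 293.3 to 310.1 in Shp2f/fLysMcre. Tnc was at 50.6, 47.2 and 46.6 CPM and 42.0, 41.2 and 44.2 CPM, a log2 difference of -0.08 (SE 0.0464), which was not called. Dcn at 0.09 (SE 0.0438), Thbs2 at 0.09 (SE 0.0375) and Fn1 at 0.04 (SE 0.0397) were not called either.

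**Figure D5:**
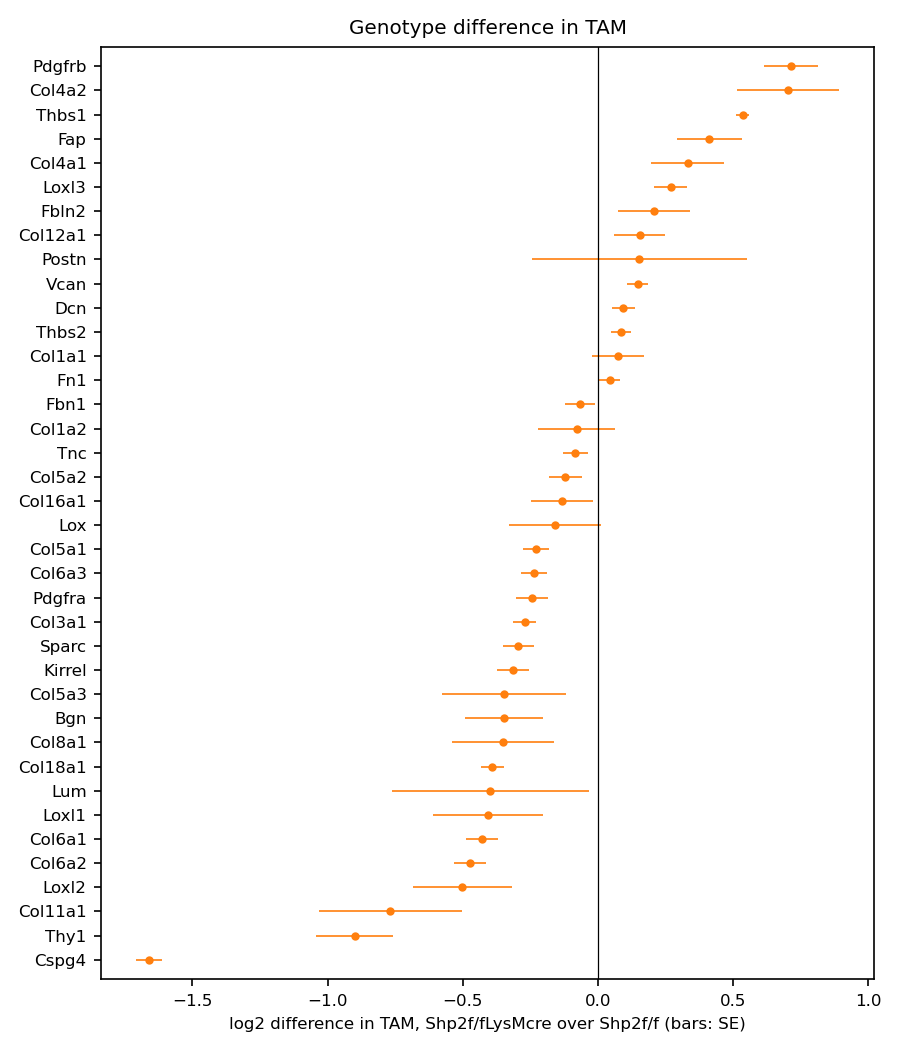
Log2 difference of Shp2f/fLysMcre over Shp2f/f in TAM for each of the 38 genes, in order of size, with bars of 1 SE from 3 libraries per genotype. Cspg4 lies lowest at -1.66 and Pdgfrb highest at 0.72.

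Markers of other cells moved with genotype in TAM. The macrophage list was higher, from 12603 to 13022 CPM in Shp2f/f to 18560 to 20036 CPM in Shp2f/fLysMcre, with 9 of its 10 genes called higher and 1 lower. A list of 20 other mesenchymal markers, of which Pdpn, Axl and Cav1 were the most abundant, was at 553.2 to 579.8 CPM in Shp2f/f and 477.7 to 487.1 CPM in Shp2f/fLysMcre, with 5 of the 13 genes tested called lower and 1 higher. Pdpn, podoplanin, made up the largest part of it, at 217.8 to 225.4 CPM and 223.0 to 234.1 CPM, and 0 or 1 of the 20 genes were at 0 in each TAM library. The endothelial list was at 74.9 to 78.3 CPM and 108.0 to 114.0 CPM, and the pancreatic islet list, led by Ins2, was at 872.1 to 6818 CPM in Shp2f/f and 5.93 to 76.6 CPM in Shp2f/fLysMcre. The list of T and NK cell markers, cells some of which express Thy1, was at 34.1 to 35.4 CPM and 56.6 to 58.3 CPM, with 8 of its 10 genes called lower and 1 higher. The megakaryocyte and platelet list, cells that also carry Thbs1, was at 933.6 to 968.5 CPM and 1393 to 1503 CPM, with 3 of its 10 genes at 0 in 5 of the 6 TAM libraries and 2 in the other. Only 4 of its genes were tested between the genotypes in TAM, with 3 called higher and 0 lower. In TAM against MDSC of Shp2f/f 9 were tested, with 2 higher and 7 lower, so few of its genes carry the sum in TAM. The part of these cells in the matrix differences was not tested. The TAM Shp2f/f libraries are also those of the comparison of TAM with MDSC above.

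Genes that act on or bind the matrix were counted as 4 lists, beside the share of all genes called given above. In TAM against MDSC of Shp2f/f 23, 10, 16 and 15 genes of these lists were tested, and between the genotypes in MDSC 18, 7, 11 and 13. Some thus entered the first comparison only through their TAM counts, so nothing is read from the list counts or medians. Of 25 enzymes and chaperones of collagen synthesis, 23 were tested in TAM against MDSC of Shp2f/f, where 17 were higher and 5 lower (edgeR quasi-likelihood), with a median log2 fold change of 2.02 against 0.012 over all genes. The most abundant of them, P4hb and Ppib, which also serve other secreted proteins, were lower in TAM, P4hb at -0.53 (SE 0.0458) and Ppib at -0.60 (SE 0.0622) on the log2 scale. Serpinh1, the collagen chaperone HSP47, was at 0.511 and 0.327 CPM in MDSC Shp2f/f and 50.05 to 50.9 CPM in TAM, with a log2 fold change of 6.92 (SE 0.117, adjusted p = 4.84e-11, edgeR quasi-likelihood). In MDSC Shp2f/fLysMcre it was at 0.585 and 64.6 CPM, so it was high in the same single library as the collagens, and in TAM Shp2f/fLysMcre it was at 33.5 to 35.02 CPM. In the genotype comparison of TAM 6 genes of this list were called higher and 6 lower, with Colgalt2, which glycosylates collagen, at 5 to 9 counts in Shp2f/f and 12 to 19 in Shp2f/fLysMcre (log2 difference 1.27, SE 0.363).

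Of 28 other collagens only 10 were tested in TAM against MDSC of Shp2f/f, and 7 were higher and 2 lower, with a median log2 fold change of 1.72. Col27a1, a fibrillar collagen of cartilage and other tissues, was at 3.16 and 2.92 CPM in MDSC Shp2f/f and 21.8 to 25.3 CPM in TAM Shp2f/f, and at 8.27 to 8.70 CPM in TAM Shp2f/fLysMcre. Its TAM against MDSC fold change was 3.002 on the log2 scale (SE 0.104, adjusted p = 4.57e-09, edgeR quasi-likelihood). Col11a2 was lower in TAM at -1.65 (SE 0.0980), and Col9a3, at -0.47 (SE 0.219), did not pass.

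Of the 16 genes of the TGF-beta list, which holds ligands, receptors and targets of the factor that induces many matrix genes, 14 were higher and 2 lower in TAM than in MDSC of Shp2f/f, with a median log2 fold change of 2.79. The 2 lower ones were the most abundant: Tgfbi at -0.37 (SE 0.0388) and Tgfb1 at -1.22 (SE 0.0506). Ccn2, a classic target, had 2 and 10 counts in MDSC Shp2f/f and 36 to 48 in TAM Shp2f/f, a log2 fold change of 2.68 (SE 0.481, adjusted p = 0.000631, edgeR quasi-likelihood), and it had 1 and 97 counts in MDSC Shp2f/fLysMcre. Ltbp2, a microfibril-bound relative of the latent TGF-beta binding proteins, was at 2.85 to 3.60 CPM in TAM Shp2f/f and 1.51 to 2.26 CPM in TAM Shp2f/fLysMcre. In the genotype comparison of TAM 4 of the 16 were called higher and 6 lower.

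Of 16 matrix receptors 15 were tested in TAM against MDSC of Shp2f/f, and 11 were higher and 3 lower, with a median log2 fold change of 2.19. Mrc1, the macrophage mannose receptor, which binds collagen, was at 18.0 and 20.4 CPM in MDSC Shp2f/f and 2365 to 2417 CPM in TAM Shp2f/f, a log2 fold change of 6.98 (SE 0.0751, adjusted p = 9.03e-12, edgeR quasi-likelihood). In TAM Shp2f/fLysMcre it was at 3495 to 3674 CPM. Cd44, the hyaluronan receptor, was at 1034 to 1110.0 CPM in TAM Shp2f/f and 710.7 to 787.3 CPM in TAM Shp2f/fLysMcre. Sdc1, syndecan 1, was at 282.4 to 304.5 CPM and 149.6 to 161.1 CPM, and Itga2, a collagen-binding integrin chain, at 4.15 to 5.56 CPM and 1.69 to 2.46 CPM. In the genotype comparison of TAM 5 of the 15 receptors were called higher and 8 lower, and Mrc1 was on the higher side while Cd44, Sdc1 and Itga2 were on the lower.

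Some pairs of these genes lie close together. Col4a1 and Col4a2 start head to head on opposite strands of chromosome 8, Col4a1 at position 11312826 and Col4a2 at 11312805 (GRCm38), so the bounds of the genes overlap, and the strand setting of the counting was not stated. Col3a1 and Col5a2 lie 24615 bases apart on chromosome 1, Dcn and Lum 46985 bases apart on chromosome 10, and neither pair overlaps.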

How the data were processed

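RNA was sequenced from 10 libraries, 2 of MDSC and 3 of TAM for each genotype, at day 15. The deposited values used here are raw counts per gene, which the authors made by checking reads with FastQC 0.11.5, trimming adapters with cutadapt 2.5, aligning to GRCm38 with STAR 2.7.3a and counting with featureCounts (Subread 1.6.2). The strand setting, and how multimapping reads were counted, are not given in the sources used here, so reads of overlapping or near-identical genes may be shared between them. A second deposited table, counts divided by the size factors of DESeq2 1.24.0, was not used. Gene symbols came from GENCODE M21, which matched 99.67% of the IDs.

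The members and lists were chosen with earlier results of these data known, and the enamel and cartilage lists were added after these values were seen. Each comparison was fitted on the whole table with edgeR 4.0.16 in R 4.3.3, using its filter with a minimum count of 10, TMM scaling, the quasi-likelihood test and Benjamini-Hochberg adjustment over all genes tested. Genes were called at an adjusted p under 0.05. The SE of a log2 fold change was taken from its F statistic. CPM used the total count of each library, and TPM used the union of exon lengths. Values by library were given for the 2 most abundant genes of each role, the 3 largest rises and falls in each comparison, and Tnc and Kirrel. From each pathway list the 2 most abundant genes and those with the largest genotype difference in MDSC and in TAM were named. Other genes named with values were chosen after their values were seen. Intervals and floors cover counting error only. Alternatives were DESeq2 1.42.0, other scalings, no filter, a stricter threshold, 1 fit of all libraries, a replicate block and leaving out each library. The fits were tested on simulated data.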

Additional observations from a re-analysis of the deposited data

Results flagged for a closer look

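The set was proposed with genotype differences in view, so the values below are a description and nothing is read from their count. The genotype difference, taken as the log2 difference of Shp2f/fLysMcre over Shp2f/f in TAM minus that in MDSC, met an adjusted p under 0.05 for the interaction term of edgeR in 17 of the 38 genes and in 24.9% of all 16581 genes tested. Scaled by total counts, 1 of the 38 genes was called higher in TAM and 18 lower, and over all genes 1234 higher and 3132 lower (median -0.18), against 2, 15, 2030 and 2102 with TMM (median -0.01). The difference was lower in TAM than in MDSC for 15 genes: Kirrel at -10.02, Tnc at -7.14, Col6a2 at -6.80, Cspg4 at -6.67, Col16a1 at -6.45, Col6a1 at -6.34, Pdgfra at -6.09, Fbln2 at -5.84, Sparc at -5.75, Col5a3 at -5.68, Loxl2 at -4.52, Fbn1 at -4.30, Thy1 at -2.57, Lox at -2.11 and Col5a1 at -2.05. It was higher in TAM for Vcan at 0.79 and Thbs1 at 0.81. Kirrel and Cspg4 had 0 or 1 counts in the MDSC Shp2f/f libraries, so the sizes of their fitted values depend on the prior count.

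A fit without replicate 2 of MDSC Shp2f/fLysMcre holds 1 library of that group, so only effect sizes are given for these 17 genes. In it Fbn1 was at -1.46, Thy1 at -1.78, Col5a1 at -1.41, Vcan at 0.47 and Thbs1 at 0.62. Of the other 12, Kirrel was at -3.35, Col5a3 at -2.54, Cspg4 at -2.39, Fbln2 at -1.80 and Loxl2 at -1.32. Lox was at -1.01, Col6a2 at -0.54, Col16a1 at -0.41 and Sparc at -0.29. Tnc, Col6a1 and Pdgfra turned to 1.26, 1.22 and 0.18.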

How the results depend on the processing

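The count of matrix genes called in TAM against MDSC of Shp2f/f was 33 of 38, beside 12343 of all 15659 genes. It stayed at 33 when each TAM library was left out, beside 11759 to 11823 of all genes. In Shp2f/fLysMcre the count of 12 became 21 in 1 fit of all 10 libraries and 8 to 35 when libraries were left out, with 32 without MDSC replicate 1 and 35 without MDSC replicate 2. Over all genes the calls there were 9990 of 15741, and 11429 of 16581 in 1 fit of all 10 libraries. Without a TAM library 8 to 9 of the 38 genes were called, beside 7813 to 8365 of all genes. The 32 and 35 come from fits that hold 1 MDSC library, so nothing is read from them. In the genotype comparison of MDSC the count of 0 of 26, beside 633 of 14806, became 3 of 26 with DESeq2, beside 1256. In 1 fit of all libraries it was 18 of 38, beside 2666 of 16581. Leaving out a library leaves 1 in a group there, so no count is given. In that of TAM the count of 19, beside 7257 of 14446, became 3 in 1 fit of all libraries, beside 4837 of 16581. It was 17 to 25 when libraries were left out, beside 6176 to 7317 of all genes. For the genotype difference between the cell types, the count of 17 became 26 with no filter on low counts, 3 at an adjusted p under 0.01 and 3 to 37 when libraries were left out. Over all genes the calls for that difference were 4132 of 16581, 3804 of 31030 with no filter and 2220 of 16581 at 0.01. Without a TAM library 4 to 6 of the 38 genes were called, beside 2997 to 3448 of all genes. Both ends of 3 to 37 come from fits that leave 1 MDSC library in a genotype, so nothing is read from them. Fewer libraries or other genes enter these fits, and the cause of each change was not tested.

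Replicate numbers were taken to be names only, since what they stand for was not given. The deviations of same-numbered libraries correlated at 0.376 between the MDSC genotypes, where 2 libraries per group make this a single value. What same-numbered MDSC libraries share was not tested. The correlations were -0.203 to 0.0840 in the other pairs with TAM or Shp2f/f libraries and -0.101 and -0.104 between MDSC and TAM of Shp2f/fLysMcre. With the replicate number as a block, the counts for TAM against MDSC were 34 of 38 in Shp2f/f, beside 12292 of 15659 genes, and 10 of 38 in Shp2f/fLysMcre, beside 6803 of 15741. For the genotypes they were 20 of 26 in MDSC, beside 2674 of 14806, and 20 of 38 in TAM, beside 6898 of 14446. For the difference between the cell types the count was 6 of 38, beside 3588 of 16581.

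Of the log2 values that the rule for named genes picked in each comparison, 6 turned, each without replicate 2 of MDSC Shp2f/fLysMcre. Over all members that library turned 12 of 38 values in TAM against MDSC of Shp2f/fLysMcre, 15 of 26 between the genotypes in MDSC and 22 of 38 in the difference between the cell types. Over the fits that leave out 1 library, the log2 fold change in TAM against MDSC of Shp2f/fLysMcre ranged from -7.32 to 3.50 for Lum, -4.03 to 0.46 for Postn and -3.77 to 1.38 for Col1a1. The log2 difference between the genotypes in MDSC ranged from -1.31 to 8.04 for Tnc, -1.39 to 6.21 for Dcn and -0.81 to 0.13 for Fn1. Of the values so picked under the alternatives, 259 kept their direction and their side of the threshold, 21 moved past it, 16 fell short of it and 6 turned. Over all genes, the calls between the genotypes in MDSC were 633, against 1256 with DESeq2, 2666 in 1 fit of all libraries, 130 with no filter and 2674 with the block. The group means of the summed CPM were 42.9, 508.9, 897.8 and 758.4 without Fn1, Thbs1, Vcan and Sparc (MDSC and then TAM, Shp2f/f first), and with TMM scaling they were 2969 in MDSC Shp2f/fLysMcre, 8962 in TAM Shp2f/f and 12332 in TAM Shp2f/fLysMcre. At these depths Col5a3, Fbln2, Loxl2, Cspg4 and Kirrel had 0 to 3 counts in all over MDSC Shp2f/f, which limits how large their folds can be stated.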

Other observations

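Apart from the matrix genes, the genes furthest above the other MDSC libraries in replicate 2 of MDSC Shp2f/fLysMcre were Amelx and Ambn, given above, and Col9a2, Ptn and Fmod. Col9a2, a chain of the type IX collagen of cartilage, had 2, 1 and 4 counts in the other MDSC libraries and 2530 in this one. Ptn, pleiotrophin, a heparin-binding growth factor, had 1, 0 and 1 counts and then 1122. Fmod, fibromodulin, a small leucine-rich proteoglycan related to Lum, had 4, 3 and 4 counts and then 1762.

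The keratinocyte list, at 0.572 to 1.34 CPM in the other TAM libraries, was at 88.0 CPM in replicate 3 of TAM Shp2f/fLysMcre, where Col1a1 at 10.6 CPM and Lum at 0.312 CPM lay within or below the range of the other TAM libraries. The erythroid list was at 282.7 and 303.8 CPM in MDSC Shp2f/f, 624.6 and 778.4 CPM in MDSC Shp2f/fLysMcre and 5.03 to 11.4 CPM in TAM. The B and plasma cell list was at 2634 to 3984 CPM in MDSC and 15.4 to 31.4 CPM in TAM. The pancreatic acinar list was at 56.3 and 84.9 CPM in MDSC Shp2f/f and 15.9 and 29.9 CPM in MDSC Shp2f/fLysMcre.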
